A study of Arabidopsis thaliana with 4 samples.

Results

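The miR164 family was represented on the arrays by 2 probes, for ath-miR164a and ath-miR164c, out of 213 miRNA probes. They were taken by probe name, and each was printed at 12 repeat spots on every array. RefSeq (TAIR10.1) lists 3 loci for the family: MIR164a (AT2G47585), MIR164b (AT5G01747) and MIR164c (AT5G27807). The arrays have no probe named for miR164b, whose mature sequence is known to be that of miR164a.

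Small RNA from whole seedlings of Arabidopsis thaliana was measured on 4 single-colour (Cy3) arrays, 1 for each combination of genotype and salt. WT_control was wild type without added NaCl (0 mM), WT_salt was wild type on 100 mM NaCl, ABR17_control carried the ABR17 cDNA without added NaCl, and ABR17_salt carried it on 100 mM NaCl. ABR17 is an abscisic acid-responsive gene known from pea, and its product belongs to the pathogenesis-related PR10 proteins. All seeds were germinated on Murashige and Skoog medium, for 2 weeks by the sample descriptions, although the growth protocol also gives 7 days. Neither the promoter that drives the cDNA nor the number of transgenic lines was stated in the labels. GEO's design entry mentions 3 biological replicates, yet each group has 1 array here, so no comparison below has a replicate check and no p-value is given.

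MiR164 guides the cleavage of mRNAs of NAC transcription factors. Its known targets in Arabidopsis include CUC1 and CUC2, which set the boundaries between organs, NAC1, which acts in auxin-dependent lateral root growth, and ORE1, which promotes leaf senescence. MIR164c is also known as EARLY EXTRA PETALS1, after the flower phenotype of its mutant. In this pathway the miRNA is the inhibitor and the NAC mRNAs are the targets. The arrays carry probes for miRNAs only, so neither the targets nor the ABR17 transcript was measured.

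The target sequences of the probes are shown because they decide what the probes can tell apart. They are those given with the deposited spots, 5′ to 3′, with the seed (bases 2 to 8) in capitals, and the third is that of the single other probe with this seed.
ath-miR164a: uGGAGAAGcagggcacgugca
ath-miR164c: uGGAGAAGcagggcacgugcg
ath-miR835-3p: uGGAGAAGauacgcaagaaag
Both miR164 sequences are 21 bases long and identical over the first 20. They differ by A21G, counted from the 5′ end with the base of miR164a first. RNA of one family member can therefore be read by both probes, and the probes are near copies of 1 measurement rather than independent ones. Among the other 165 probes of this length, none came closer to either miR164 sequence than 8 mismatches, without gaps. MiR835-3p shares bases 1 to 8 with miR164a and has 9 mismatches in all. Its mean intensity was 229 in WT_control, 96.3 in WT_salt, 98.1 in ABR17_control and 86.4 in ABR17_salt, 0.992, 1.13, 0.882 and 0.999 times the blank mean of the array. It was detected on no array.

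The depth of an array is set by its signal over the blank spots. The 1120 blank spots had a mean of 231 ± 22.2 (SD over spots) in WT_control, 84.8 ± 5.52 in WT_salt, 111 ± 13.2 in ABR17_control and 86.5 ± 3.92 in ABR17_salt. Detection of a miRNA required 50% or more of its spots to exceed the mean of the blanks by 3 of their SD. By this rule 30 miRNAs were detected on all 4 arrays and 150 on none. Detected on each array were 39 in WT_control, 54 in WT_salt, 30 in ABR17_control (the fewest) and 59 in ABR17_salt. The part of these unequal numbers in the quantile-normalised values was not tested. Blank level and detection threshold were highest in WT_control, an array that enters both comparisons with untreated wild type, and the part of this in the results was not tested.

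Both miR164 probes were detected on every array, with all 12 spots above the threshold each time. On WT_control, where the threshold was 298, miR164a ranged over its spots from 464 to 611 with a median of 517. Its relative miR164c ranged there from 379 to 606 with a median of 533. The lowest of these spots, 379, was an uneven one, with a deposited density SD inside the spot of 321. Without it the other 11 spots of miR164c lay between 475 and 606.

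On WT_salt the spots of miR164a lay between 158 and 203 (median 175) and those of miR164c between 169 and 208 (median 187), against a threshold of 101. On ABR17_control the spots of miR164a lay between 304 and 397 (median 358) and those of miR164c between 242 and 411 (median 385), against a threshold of 151. On ABR17_salt they lay between 180 and 220 (median 196) for miR164a and between 182 and 226 (median 203) for miR164c, against a threshold of 98.3. In raw intensity the salt arrays were thus the dimmer ones for both probes, with no overlap between the salt and the no-salt spots of either genotype.

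After subtraction of the blank mean, miR164a averaged 301 ± 49.5 (SD of 12 spots) in WT_control, 93.5 ± 12.5 in WT_salt, 242 ± 28.2 in ABR17_control and 111 ± 13.2 in ABR17_salt. MiR164c averaged 294 ± 61.4, 102 ± 11.9, 253 ± 53.5 and 116 ± 14.6 in the same order. On the scale of each array's blank, the mean of miR164a stood 13.5 blank SD above the blank mean in WT_control, 16.9 in WT_salt, 18.3 in ABR17_control and 28.3 in ABR17_salt. These linear values are not adjusted for the brightness of the arrays.

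Levels between arrays were compared after normexp background correction, log2 transformation and quantile normalisation over the 213 miRNAs, a step that assigns equal values to equal ranks across arrays. Normalised log2 levels of miR164a were 7.46 ± 0.18 (SD of 12 spots) in WT_control, 7.84 ± 0.12 in WT_salt, 8.35 ± 0.13 in ABR17_control and 7.69 ± 0.11 in ABR17_salt. Those of miR164c were 7.37 ± 0.26, 8.07 ± 0.10, 8.42 ± 0.27 and 7.90 ± 0.12. Both probes followed the same order, from ABR17_control through WT_salt and ABR17_salt to WT_control. For miR164a all ABR17_control spots (8.11 to 8.55) lay above all spots of the other arrays, whereas the spots of WT_salt (7.64 to 8.05), ABR17_salt (7.55 to 7.87) and WT_control (7.19 to 7.74) overlapped from neighbour to neighbour. For miR164c, WT_control (6.69 to 7.67) lay below all other arrays, and the spots of ABR17_control (7.77 to 8.64), WT_salt (7.90 to 8.25) and ABR17_salt (7.72 to 8.08) overlapped.

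**Figure D1:**
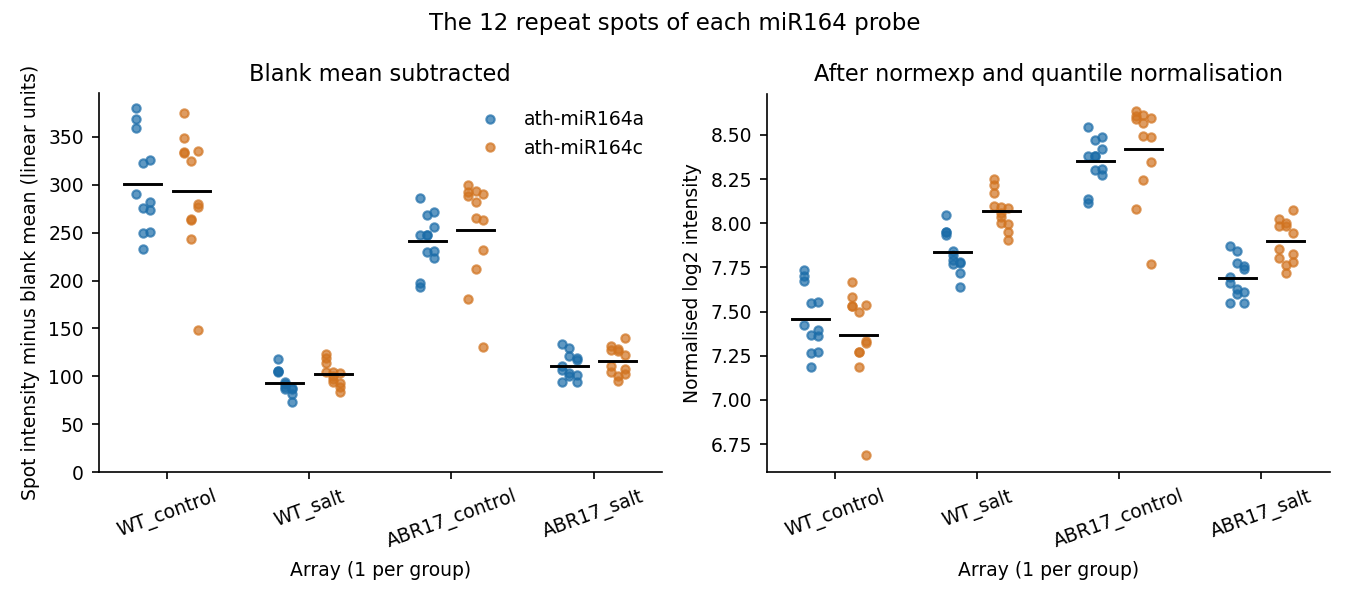
Intensity of the 12 repeat spots (points) of ath-miR164a (blue) and ath-miR164c (orange) on each of the 4 arrays, with their mean (bar): left, minus the blank mean on a linear scale, and right, as normalised log2 intensity. WT_control is the brightest array on the left (means of 301 and 294) and the lowest on the right (7.46 and 7.37), while ABR17_control is at 242 and 253 on the left and the highest on the right.

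The rank of each probe within an array was highest in ABR17_control as well. Quantile normalisation works on these ranks, so they restate the normalised order and are no separate evidence for it. Among the 30 miRNAs detected on all arrays, counted from the brightest, miR164a was at place 26 in WT_control, 24 in WT_salt, 19 in ABR17_control and 26 in ABR17_salt. MiR164c was at place 27, 21, 18 and 24. For miR164a the places in WT_control and ABR17_salt were tied among these 30, but not among all 213, where they were 28 and 26. A rank depends on the probes as well as on the RNA, so only its change between arrays is of use. In the authors' deposited table (scaling unknown) miR164a read 135 in WT_control, 156 in WT_salt, 320 in ABR17_control and 124 in ABR17_salt. The authors' deposited table gives miR164c at 138, 172, 331 and 130. ABR17_control is the highest array for both probes there too, but ABR17_salt and not WT_control is the lowest.

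Across 13 alternative settings that give levels on all 4 arrays, ABR17_control was the highest array for both probes in 12. The exception was no normalisation, where WT_control was highest. Among the 13, a stricter detection threshold left the levels as reported, so it could not change an order or a direction, here and below. The alternatives on background, spot summary and choice of spots kept the quantile step, so they did not vary the scaling. The lowest array was less settled: WT_control in 7 of the 13 for miR164a and 8 for miR164c, ABR17_salt in 4 and 3, and WT_salt in 2 for each.

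The transgene without salt was addressed by comparing ABR17_control with WT_control, for the question of how ABR17 expression bears on miRNA levels. Both miR164 probes were higher in ABR17_control in 13 of 14 alternatives and lower with no normalisation. They were also lower with the blank mean subtracted and no scaling. The difference of miR164a was 0.89 ± 0.07 (log2, SE of repeat spots), or 1.86-fold, and that of miR164c 1.05 ± 0.11, or 2.07-fold, and the spots of the arrays did not overlap for either. Since whole seedlings were used, a change in the share of organs or cells that make a miRNA and a change per cell cannot be told apart, here and below.

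To be counted, a miRNA had to be detected on both arrays, reach a log2 difference of 1 or more in size (2-fold) and show separate ranges of spots on the arrays. By this rule miR164c was counted and miR164a was not. Without uneven spots, such as that of miR164c on WT_control, neither was counted, at 0.96 for miR164c and 0.97 for miR164a. Of all 30 miRNAs detected on both arrays, 2 were counted higher (6.67%) and 1 lower (3.33%), and 7 (23.3%) had spots that did not overlap. From the highest difference, miR164c was at place 2 and miR164a at place 4 of the 30, whose median was 0. The authors' deposited table gives differences of 1.25 for miR164a and 1.26 for miR164c. It has no repeat spots, so a count in it rests on detection and the 2-fold size only.

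The size of this difference depended on the scaling. The mean of both probes was 0.97 ± 0.06 as reported, with an SE that treats the near-copy probes as independent. It was 0.39 with scaling on the calibration probes, 0.14 with the 75th percentile, 0.076 with scaling on the 5S rRNA probes and −0.26 without normalisation. For the 4 settings that move all probes of an array by 1 constant (none, 75th percentile, calibration and 5S rRNA), the mean stood 0.29 above the median of the 30 miRNAs, whatever the constant. With the blank mean subtracted and no other adjustment, miR164a in ABR17_control was 0.803 times and miR164c 0.86 times its WT_control intensity, and these ratios were at place 7 and 5 from the highest of 30. The count of miR164c held in 6 of 14 alternatives, and miR164a was counted in 4.

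The effect of salt on ABR17 plants was read from ABR17_salt and ABR17_control. This comparison shares ABR17_control with the one before. Both probes were lower with salt, miR164a by −0.66 ± 0.05 (1.58-fold) without overlap of spots and miR164c by −0.52 ± 0.08 (1.44-fold) with overlap. Neither was counted. No miRNA of the 30 detected on both arrays was counted lower (0%) and 1 was counted higher (3.33%), while 8 (26.7%) had spots that did not overlap. From the lowest difference, miR164a was at place 4 and miR164c at place 6.

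The direction of this difference was the same in all 14 alternatives for both probes, although the one with stricter detection could not change it. The mean of both was −0.59 ± 0.05 as reported and ranged from −0.51 with no background correction to −1.36 in the authors' deposited table. The authors' deposited table gives −1.37 for miR164a and −1.34 for miR164c. With the blank mean subtracted and no scaling, ABR17_salt had 0.459 times the ABR17_control intensity for miR164a and 0.461 times for miR164c. The median of the 30 miRNAs on that scale was a log2 ratio of 0.03, and the probes were at place 2 and 3 from the lowest. The 2-fold rule was passed in 4 of 14 alternatives by miR164a and in 3 by miR164c.

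The effect of salt on wild type seedlings was read from WT_salt and WT_control. This comparison shares WT_control with that of the genotypes without salt. Both probes were higher with salt after quantile normalisation, and lower under 4 of the 14 alternatives. As reported, miR164a was higher by 0.38 ± 0.06 (1.30-fold) with overlapping spots and miR164c by 0.70 ± 0.08 (1.63-fold) without overlap, and neither was counted. Among 35 miRNAs detected on both arrays, 1 was counted higher (2.86%) and 3 lower (8.57%), and 10 (28.6%) had spots that did not overlap. From the highest, miR164c was at place 6 and miR164a at place 9. The authors' deposited table gives differences of 0.21 and 0.31 for miR164a and miR164c.

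The direction in the wild type turned with the scaling. The mean of both probes was 0.54 ± 0.05 as reported and 0.17 with cyclic loess, but −0.57 with the 75th percentile, −0.69 with calibration scaling, −1.26 without normalisation and −1.47 with 5S rRNA scaling. With the blank mean subtracted and no scaling, WT_salt had 0.311 times the WT_control intensity for miR164a and 0.348 times for miR164c. The median log2 ratio of the 35 miRNAs was then −1.01, and the probes lay 0.68 and 0.52 below it. The 2-fold rule was passed by miR164a in 2 of 14 alternatives, lower with salt in both (no normalisation and 5S rRNA scaling). MiR164c passed it in 3, lower in the same 2 and higher with the blank mean subtracted before quantile normalisation. No direction of the wild type response can be read from these arrays without choosing a scaling. The blank mean was 231 in WT_control and 84.8 in WT_salt, and its part in this result was not tested.

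The genotypes under salt were compared through ABR17_salt and WT_salt. Here the probes were close, at −0.14 ± 0.05 for miR164a and −0.17 ± 0.05 for miR164c, with overlapping spots for both and no count. Of 51 miRNAs detected on both arrays, none was counted in either direction (0%), and 9 (17.6%) had spots that did not overlap. The median of the 51 was −0.06. Without scaling, after subtraction of the blank mean, ABR17_salt had 1.19 times the WT_salt intensity for miR164a and 1.14 times for miR164c. This pair had the most even blanks (84.8 and 86.5). The mean of both probes stayed between −0.36, in the authors' deposited table, and 0.22, with 5S rRNA scaling, and neither probe passed the 2-fold rule in any of the 14 alternatives.

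**Figure D2:**
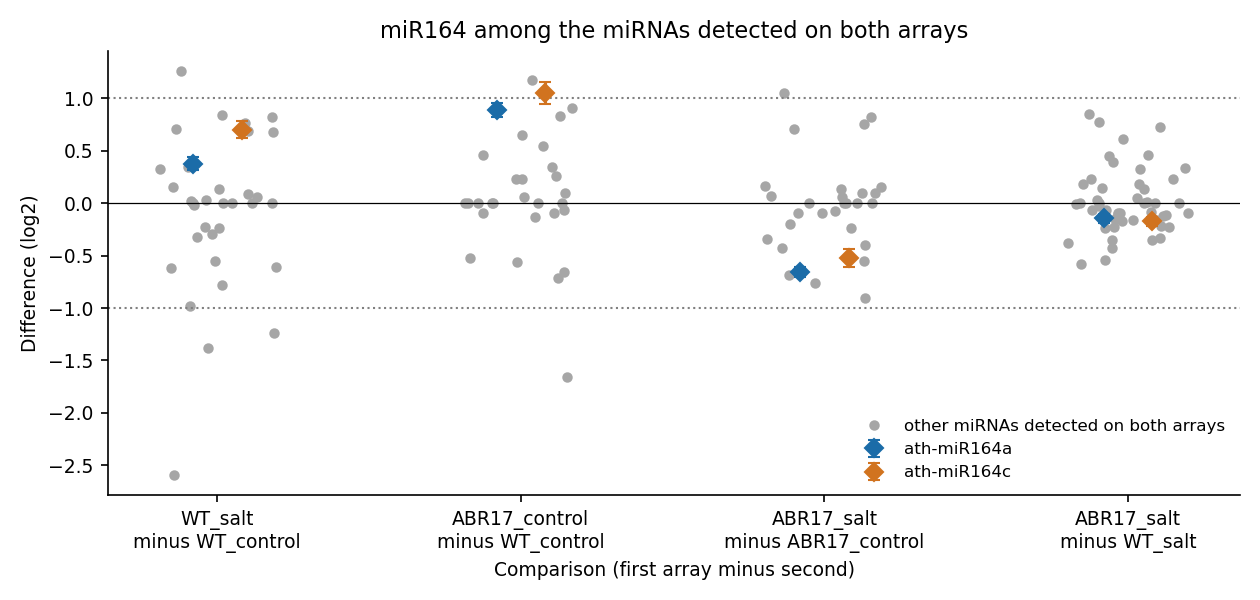
Difference in normalised log2 intensity between the arrays of each comparison, for ath-miR164a (blue) and ath-miR164c (orange, both with the SE of repeat spots) and for the other miRNAs detected on both arrays (grey), with dotted lines at the 2-fold rule. The miR164 probes lie at 0.89 and 1.05 in ABR17_control minus WT_control, at −0.66 and −0.52 in ABR17_salt minus ABR17_control, and near 0 between the salt arrays. Without normalisation the first of these pairs turns negative.

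The salt responses of the genotypes were then set against each other. The response in the transgenic minus that in the wild type was −1.04 ± 0.08 for miR164a and −1.22 ± 0.12 for miR164c (log2, SE of repeat spots). Among the 30 miRNAs detected on all arrays, 5 had a response lower by at least 2-fold in the transgenic (16.7%), both miR164 probes among them at place 5 and 2 from the lowest, and 3 had a higher one (10%). The median of the 30 was 0. The authors' deposited table gives −1.58 and −1.66, at place 3 and 2. Of the 13 alternatives for this value, 11 kept the negative sign, and it turned positive without normalisation (0.40 for the mean of both probes) and with 5S rRNA scaling (0.14). The difference uses all 4 arrays, WT_control included, and was not tested.

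**Figure D3:**
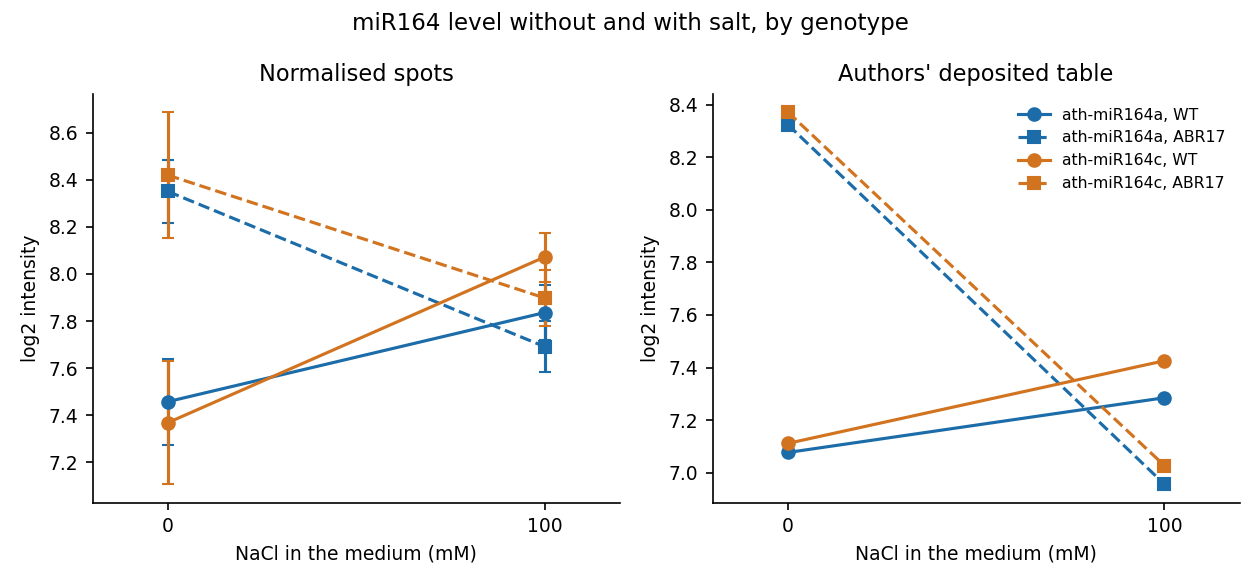
Log2 intensity of ath-miR164a (blue) and ath-miR164c (orange) at 0 and 100 mM NaCl in wild type (circles, solid lines) and ABR17 plants (squares, dashed lines): left, normalised spots with the SD of 12 spots, and right, the authors' deposited table, which has no error. In both panels the lines cross, with ABR17 plants above wild type without salt and below it with salt. Without normalisation and with 5S rRNA scaling they do not cross in this way.

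**Figure D4:**
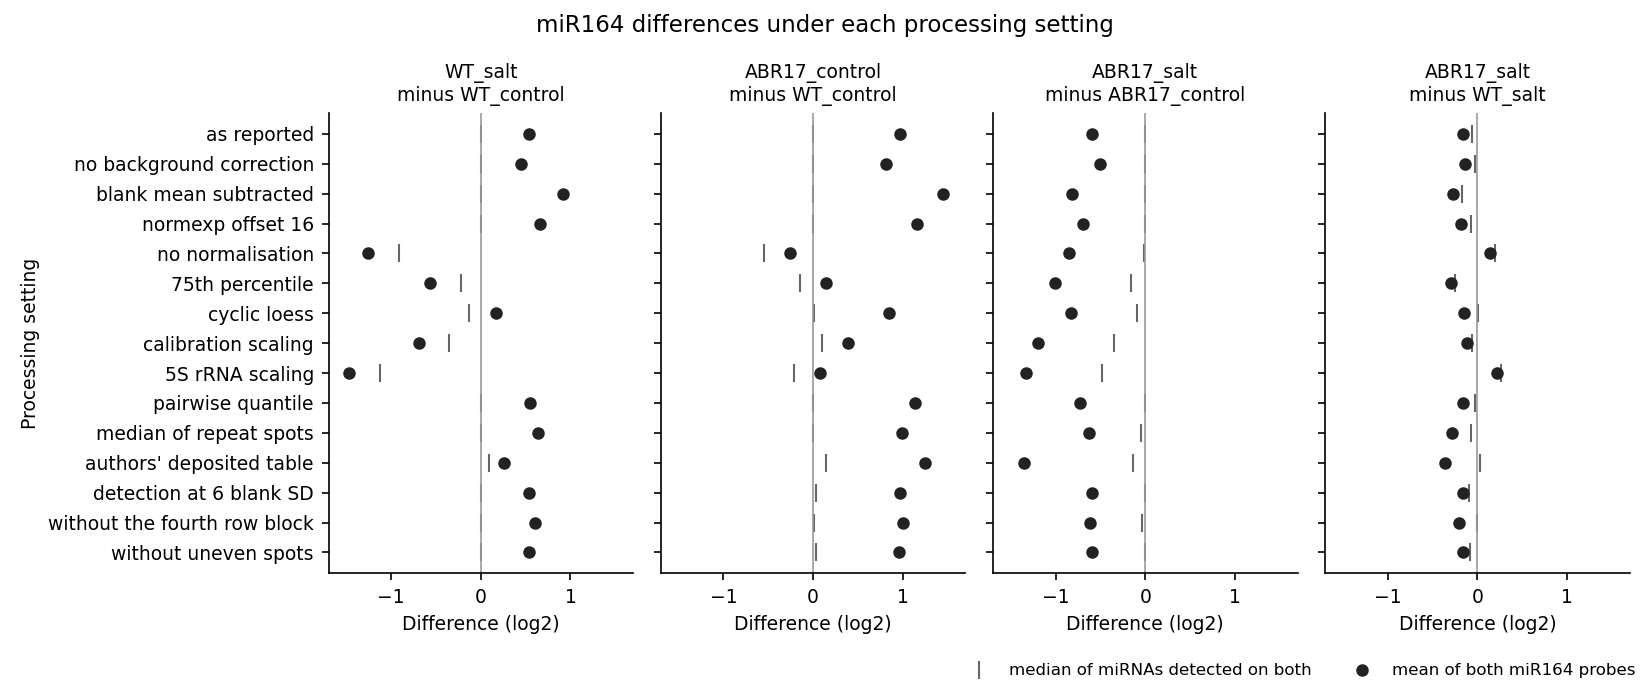
Mean log2 difference of both miR164 probes (points) in each comparison under each processing setting, beside the median of the miRNAs detected on both arrays (ticks). The points lie left of 0 in every setting for ABR17_salt minus ABR17_control (−0.51 to −1.36) and on both sides of 0 for WT_salt minus WT_control (−1.47 to 0.92).

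The probes were compared with each other at their 12 neighbouring spots, since each miR164c spot was printed 1 row from a miR164a spot in the same column. A level difference between probes can come from the probe as well as from the RNA, so only its change between arrays is of use. The mean log2 ratio of miR164a over miR164c, after subtraction of the blank mean, was 0.05 ± 0.29 (SD of 12 pairs) in WT_control, −0.13 ± 0.12 in WT_salt, −0.04 ± 0.33 in ABR17_control and −0.07 ± 0.13 in ABR17_salt. MiR164a was the brighter one in 6, 2, 3 and 5 of the 12 pairs. The highest ratio on WT_control, 0.93, was that of the pair with the uneven miR164c spot, which widens the spread there. The ratios of the arrays overlapped, so no unequal change of the probes was seen beyond the spread of the spots.

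The order of the probes differed with position in ABR17_control. There, miR164c was brighter than miR164a at all 9 pairs of the first 3 row blocks, and miR164a was brighter at all 3 pairs of the fourth. In that block miR164c averaged 286, against 373, 394 and 402 in the others, and miR164a averaged 337 against 327, 368 and 380. Blank spots there averaged 117 in the fourth block, against 106, 109 and 112. On WT_control the spots in column 2 were the brightest for both probes, at means of 581 and 579, against 501 and 505 in column 12 and 514 and 491 in column 22. On WT_salt the same column was brightest as well (193 and 200, against 167 and 177 in column 22). Leaving out the fourth row block moved no difference between arrays beyond the spread of the spots (ABR17_control minus WT_control 1.01, ABR17_salt minus ABR17_control −0.62 for the mean of both probes).

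**Figure D5:**
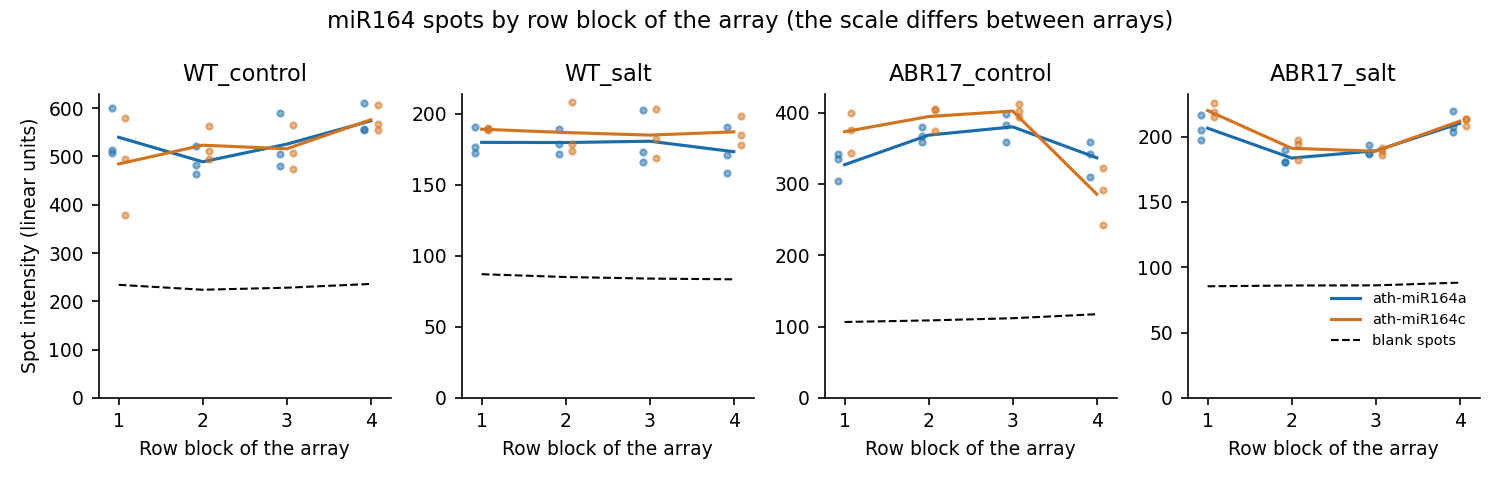
Raw intensity of the 3 spots in each of the 4 row blocks (points) and their mean (lines) for ath-miR164a (blue) and ath-miR164c (orange), with the blank mean of the block (dashed), on each array. On ABR17_control the line of miR164c falls from 402 to 286 in the fourth block, below that of miR164a (337). In the first block of WT_control, which holds the uneven spot, miR164c (485) also lies below miR164a (539.7).

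Other families that shape leaves, boundaries and meristems were represented by 10 probes, for miR165, miR166, miR170, miR171, miR319, miR394 and miR396. Of these, 6 were detected on both arrays in each of the 3 comparisons with a no-salt array and 8 between the salt arrays. In ABR17_control against WT_control none of the 6 was counted, with a median of 0. Their range ran from −0.71 ± 0.08 for miR319c, which targets TCP factors of leaf growth, to 0.84 ± 0.07 for miR171a, which targets the GRAS-type HAIRY MERISTEM factors. Both miR164 probes, at 0.89 ± 0.07 and 1.05 ± 0.11, lay above this range, with miR164a close to miR171a. In the authors' deposited table miR171b, at 1.38, lay above miR164a (1.25) and miR164c (1.26).

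In ABR17_salt against ABR17_control the list had a median of 0 and no counted member, from −0.55 ± 0.06 for miR171b to 0.71 ± 0.06 for miR319c. In WT_salt against WT_control 1 of the 6 was counted higher, miR171a at 1.26 ± 0.06, none was counted lower, and the smallest was miR319c at −0.61 ± 0.07 (median −0.16). Between the salt arrays the 8 members ran from −0.35 ± 0.13 for miR171b to 0.61 ± 0.06 for miR319c, with a median of −0.01 and none counted. MiR319c kept its direction in all 14 alternatives of each comparison. As reported, it differed in the opposite direction to the miR164 probes in all 4 comparisons, and in ABR17_salt against ABR17_control it did so under every alternative (from 0.45 to 0.996). The direction of miR171a turned in 3 of 14 alternatives in each comparison with WT_control, no normalisation among them. That of miR171b turned in none of the 14 for ABR17_salt against ABR17_control and against WT_salt. Its direction against WT_control was not followed through the alternatives.

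Auxin families had 6 probes, for miR160, miR167, miR390 and miR393, of which 5 were detected on both arrays in each comparison and none was counted. They bear on auxin response factors, on trans-acting siRNAs against such factors and on auxin receptors. Their median was 0.35 in ABR17_control against WT_control, from 0 for miR160a, a tie of rank, to 0.66 ± 0.06 for miR167a, which targets ARF6 and ARF8. In ABR17_salt against ABR17_control it was −0.07, from −0.76 ± 0.06 for miR167a to 0.10 ± 0.05 for miR160a. In WT_salt against WT_control it was 0.16, from −0.29 ± 0.12 for miR167c to 0.68 ± 0.13 for miR390a. Between the salt arrays it was −0.16, from −0.23 ± 0.05 for miR160a to 0.45 ± 0.04 for miR167c. The direction of miR167a in ABR17_control against WT_control turned in 5 of 14 alternatives, that of miR390a in WT_salt against WT_control in 6, and that of miR160a in 4 and 2 for the comparisons of ABR17_salt with ABR17_control and with WT_salt, whereas both values of miR167c and the salt value of miR167a in the transgenic kept theirs.

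The miRNAs whose normalised levels were most like those of miR164 were sought among the 28 others detected on all arrays, by the root mean square distance of log2 levels centred on each miRNA's mean over the 4 arrays. Centred, the mean of the miR164 probes was −0.47 in WT_control, 0.07 in WT_salt, 0.50 in ABR17_control and −0.09 in ABR17_salt. The nearest was miR163, which targets methyltransferases of secondary metabolism, at a distance of 0.14, with centred levels of −0.69, 0.15, 0.49 and 0.06 in the same order. Next were miR157a, which targets SPL factors, at 0.16 (−0.60, 0.22, 0.31 and 0.07, with an SE of repeat spots of 0.33 on its difference of salt responses) and miR171b at 0.17 (−0.22, 0.12, 0.33 and −0.22). All 3 were lowest in WT_control and highest in ABR17_control, with miR171b as low in ABR17_salt as in WT_control. In the authors' deposited table they came at place 2, 8 and 1 by the same measure. Other probes of the miR171 and miR157 families were further off in the normalised levels, miR171a at place 12 and miR157d at place 14. With 4 arrays that all profiles share, this likeness is a description only.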

How the data were processed

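Small RNA of 4 seedling samples, 1 array each, was labelled with Cy3 by a service provider, per the labels' protocols. Spot densities (means) are linear intensities without background subtraction, per the file headers, and the deposited density SD of a spot is an intensity as well. A further table of the authors holds processed intensities, 1 value for each miRNA on each array. Its log2 values correlated with those of the blank-subtracted spot means of detected miRNAs at r = 0.987 to 0.999, so it is linear, while how it was scaled stays unknown. Its column medians were 12.6, 10.3, 11.2 and 9.38 for WT_control, WT_salt, ABR17_control and ABR17_salt.

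Spots were corrected with normexp (limma 3.58.1 in R 4.3.3, offset 50), transformed to log2, averaged over 12 repeat spots and quantile normalised over 213 miRNAs. With this offset, differences between dim miRNAs shrink. The SE and SD cover spotting and scanning of 1 hybridisation, not seedlings. For the mean of both miR164 probes they treat the probes as independent, which near copies are not, so they may be too small. The functions were tested on simulated data. The members and lists were chosen with earlier results of these data known. Named besides the miR164 probes were the list members with the largest and smallest difference in each comparison and the 3 nearest profiles. Alternatives covered background, scaling, spot summary, detection and the authors' deposited table, and 2 on the choice of spots were added after seeing the data.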

Additional observations from a re-analysis of the deposited data

Results flagged for a closer look

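The salt responses of the genotypes went opposite ways after normalisation: both miR164 probes were higher with salt in the wild type (miR164a 0.38, miR164c 0.70) and lower with salt in the transgenic (−0.66 and −0.52). The response of the transgenic minus that of the wild type was −1.04 for miR164a and −1.22 for miR164c on the log2 scale. With 1 array per group this difference was not tested, and the wild type response turned sign in 4 of 14 alternatives.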

How the results depend on the processing

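No paired analysis was possible because each group has 1 array, and no replicate could be left out. A value was taken as moved where it shifted by more than 1 SD of the repeat spots, and a count where it shifted by over 1.5 times. The cause of the shifts was not tested. Stricter detection can alter counts of miRNAs but not the miR164 levels, so the signs it kept are no separate check. The mean difference of both miR164 probes in ABR17_salt minus ABR17_control kept its sign in all 14 alternatives and moved to −0.81 with the blank mean subtracted, −0.86 with no normalisation, −1.003 with the 75th percentile, −0.83 with cyclic loess, −1.19 with calibration scaling, −1.33 with 5S rRNA scaling and −1.36 in the authors' deposited table. ABR17_control minus WT_control kept its sign in 13 of 14 and moved to 1.45 with the blank mean subtracted, 0.14 with the 75th percentile, 0.39 with calibration scaling, 0.076 with 5S rRNA scaling, 1.25 in the authors' deposited table and −0.26 with no normalisation (miR164a −0.29, miR164c −0.22). WT_salt minus WT_control kept its sign in 10 of 14 and moved to 0.92 with the blank mean subtracted, 0.17 with cyclic loess, 0.26 in the authors' deposited table, −0.57 with the 75th percentile, −0.69 with calibration scaling, −1.26 with no normalisation and −1.47 with 5S rRNA scaling. ABR17_salt minus WT_salt kept its sign in 12 of 14 and moved to −0.28 with the blank mean subtracted, −0.30 with the 75th percentile, −0.28 with the median of repeat spots, −0.36 in the authors' deposited table, 0.14 with no normalisation and 0.22 with 5S rRNA scaling. The difference of salt responses moved to −1.73 with the blank mean subtracted, −0.44 with the 75th percentile, −0.50 with calibration scaling and −1.62 in the authors' deposited table. It turned to 0.40 with no normalisation (miR164a 0.45, miR164c 0.35) and to 0.14 with 5S rRNA scaling (miR164a 0.19, miR164c 0.087).

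The difference of miR164a minus miR164c was −0.24 within WT_salt and −0.21 within ABR17_salt as reported. It was −0.079 and −0.045 with no normalisation, the 75th percentile, calibration scaling or 5S rRNA scaling and −0.068 and −0.036 with cyclic loess. With the median of repeat spots it was −0.45 on WT_salt. On WT_control and ABR17_control it stayed within the spread of spots, at 0.09 and −0.07, but without uneven spots (density SD over 50% of the mean) that of WT_control was −0.09.

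For counts of miRNAs, with 1 higher and 3 lower in WT_salt minus WT_control, the blank mean subtracted gave 4 and 6, no normalisation 0 and 15, the 75th percentile 0 and 11, calibration scaling 0 and 11, 5S rRNA scaling 0 and 21, and the authors' deposited table gave 3 and 9. Cyclic loess gave 5 lower there and detection at 6 blank SD 1 lower. Counts in the authors' deposited table, here and below, follow a looser rule, without the condition on repeat spots. With 2 higher and 1 lower in ABR17_control minus WT_control, the blank mean subtracted gave 6 and 3, no normalisation 0 and 9, the 75th percentile 0 and 7, calibration scaling 0 and 5, 5S rRNA scaling 0 and 7, and the authors' deposited table gave 5 and 5. No background correction gave 0 higher, normexp with offset 16 gave 5, pairwise quantile 4, the median of repeat spots 1 and no uneven spots 1, while cyclic loess gave 3 lower. With 1 higher and 0 lower in ABR17_salt minus ABR17_control, the blank mean subtracted gave 2 and 3, calibration scaling 0 and 4, 5S rRNA scaling 0 and 5, and the authors' deposited table gave 3 and 4. No background correction and detection at 6 blank SD gave 0 higher there and pairwise quantile 2, and normexp with offset 16, the 75th percentile and leaving out the fourth row block each gave 1 lower. With 0 higher and 0 lower in ABR17_salt minus WT_salt, the blank mean subtracted gave 4 and 2, while normexp with offset 16 gave 2 higher, no normalisation 3, 5S rRNA scaling 3 and the authors' deposited table gave 4.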
